A study of Mus musculus with 45 samples.

Results

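Expression of 8 cytokine genes of helper T cells was examined in sorted mouse lymphocytes: Il21, Il4, Il2, Ifng, Il10, Il17a, Il13 and Tnf. They were chosen by symbol, and each matched 1 of the 55450 gene rows in the RNA-sequencing count table. Helper T cells instruct other immune cells through secreted cytokines. T follicular helper (Tfh) cells, which enter B cell follicles, are known for secreting IL-21 and IL-4, which sustain germinal center B cells and support antibody class switching. Other helper cells are known for IFN-γ (Th1), IL-13 and IL-4 (Th2) or IL-17A (Th17), and regulatory cells for IL-10.

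The 45 samples formed 8 groups from 4 sorted populations and 2 genotypes. Mice lacking S1PR4, a receptor for the lipid sphingosine-1-phosphate, carried the B6.129P2-S1pr4tm1Dgen/J allele backcrossed to C57/BL6 for at least 10 generations (S1PR4-/-, KO in the plots), and the controls were WT littermates. Male and female mice aged 8 to 12 weeks were all immunized in the footpad with 20 µL of an incomplete Freund's adjuvant emulsion holding 50 µg ovalbumin and 5 µg LPS. The popliteal lymph nodes gave, on day 6, T cells positive for TCRβ and CD4 that were positive for both PD1 and CXCR5 (Tfh) or negative for both (non-Tfh), and, on day 9, B220+ B cells that were positive for both GL7 and Fas (germinal center, GC B) or negative for both (non-GC B). Non-GC B cells gave 5 WT and 4 S1PR4-/- samples, and each other group held 6. The methods give 6 mice of each genotype for the sorts, but the labels do not tie samples to mice, so p-values measure the spread between these samples, which may be technical. In sorted bulk cells, fewer cells making a transcript and less transcript per cell cannot be told apart.

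The libraries held 2.63e+07 to 4.55e+07 expected counts each. S1pr4 was at 17.7 to 159 CPM (expected counts scaled to library size by TMM) in WT samples and at 0 to 1.01 CPM in S1PR4-/- samples. Markers of the sorted populations followed the labels: the summed level of 12 T cell markers was 8958 to 12753 CPM in T cell samples and 69.0 to 213 CPM in B cell samples, all 8 Tfh markers were higher in Tfh than in non-Tfh cells in both genotypes, and all 8 GC B markers were higher in GC B than in non-GC B cells in both genotypes. B cell markers were not absent from the Tfh samples, where 12 of them summed to 184 to 510 CPM in WT and 160 to 294 CPM in S1PR4-/- mice, against 57.1 to 105 CPM in non-Tfh and 8335 to 17009 CPM in B cell samples.

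Il21 (ENSMUSG00000027718.8) lies at chr3:37222759-37232636 on the minus strand of mm10, and Il2 (ENSMUSG00000027720.7) is 96.8 kb away at chr3:37120523-37125959 on the same strand. Il4 (ENSMUSG00000000869.12, chr11:53602982-53618669) and Il13 (ENSMUSG00000020383.1, chr11:53631324-53634702) are also neighbours on the minus strand, 12.7 kb apart. Ifng (ENSMUSG00000055170.4, chr10:118441046-118445892) is 231 kb from Il22 and 36.9 Mb from S1pr4, on the same chromosome as the targeted allele. Il10 (ENSMUSG00000016529.5) is at chr1:131019845-131024974 and Il17a (ENSMUSG00000025929.4) at chr1:20730905-20734496, 42.7 kb from Il17f. Tnf (ENSMUSG00000024401.14, chr17:35199381-35202007) lies 1.16 kb from Lta and 3.06 kb from Ltb. Il21 overlaps the antisense gene Gm12534, Il2 overlaps Adad1 on the other strand, and Ifng overlaps Gm49751 on its own strand. How the counting treated strand is not given in the sources used here, and these partners held at most 29.2, 7 and 7 counts in any sample.

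The 250 bases upstream of Il21, Il4 and Il2 are shown because these genes lay higher in Tfh than in non-Tfh cells in both genotypes. They come from RefSeq for GRCm38.p6, the assembly mm10, and are written 5′ to 3′ on the gene's strand, with capitals marking GGAAA, the core bound by NFAT factors, and its reverse complement TTTCC. The windows are chr3:37232637-37232886 for Il21, chr11:53618666-53618915 for Il4 and chr3:37125955-37126204 for Il2, all on the minus strand.
Il21: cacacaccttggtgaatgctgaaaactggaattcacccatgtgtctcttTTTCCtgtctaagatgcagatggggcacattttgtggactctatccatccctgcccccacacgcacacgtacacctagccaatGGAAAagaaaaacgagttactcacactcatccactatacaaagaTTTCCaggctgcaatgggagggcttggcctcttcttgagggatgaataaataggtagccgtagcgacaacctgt
Il4: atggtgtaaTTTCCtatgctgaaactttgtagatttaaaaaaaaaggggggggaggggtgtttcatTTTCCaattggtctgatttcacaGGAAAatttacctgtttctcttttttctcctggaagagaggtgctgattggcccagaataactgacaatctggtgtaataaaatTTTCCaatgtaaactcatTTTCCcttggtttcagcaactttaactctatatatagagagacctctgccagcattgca
Il2: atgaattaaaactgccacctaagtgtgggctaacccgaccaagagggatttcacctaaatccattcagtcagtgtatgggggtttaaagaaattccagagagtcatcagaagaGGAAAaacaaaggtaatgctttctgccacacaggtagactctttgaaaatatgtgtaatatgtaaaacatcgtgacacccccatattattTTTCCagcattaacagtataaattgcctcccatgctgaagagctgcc
The Il21 window held 3 matches on both strands together, and 6.39% of 32851 such windows held as many or more. Il4 held 5 (0.390% of windows) at this start and 0 at a second annotated start, and Il2 held 2 (21.4%). Among the other members with a window, Il13 held 4 (1.59%), Tnf 3 (6.39%), Ifng 1 (55.6%) and Il17a 0. The median window held 1 match and 44.4% held none. A match is a description of letters and not a binding site.

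Il21, the cytokine most closely tied to Tfh help, had the highest level per length of the 8 members in Tfh cells. In WT Tfh samples it was at 110.2, 138 and 166 CPM (lowest, median and highest of 6), and in S1PR4-/- Tfh samples at 120.0, 232 and 311 CPM. In non-Tfh samples it was at 0.485, 0.704 and 1.74 CPM in WT and at 0.466, 1.78 and 4.86 CPM in S1PR4-/- mice. All Tfh samples lay above all non-Tfh samples, while the 2 genotypes overlapped within each population. No count was assigned to Il21 in any of the 21 B cell samples, which allows a level of up to 0.0792 to 0.118 CPM depending on the library (3 counts, counting error only). Per kilobase of exon, the mean Il21 level was 26.3 CPM in WT Tfh and 42.0 CPM in S1PR4-/- Tfh cells.

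Il4, which drives class switching, was at 8.41, 10.7 and 13.2 CPM in WT Tfh samples and at 8.28, 11.3 and 24.2 CPM in S1PR4-/- Tfh samples. In non-Tfh samples it did not exceed 0.227 CPM in WT and 0.301 CPM in S1PR4-/- mice. The Tfh and non-Tfh ranges were apart in both genotypes. Per kilobase of exon, the mean Il4 level was 8.62 CPM in WT and 12.1 CPM in S1PR4-/- Tfh cells. B cell samples reached 0.110 CPM, with 16 counts over all 21 samples and 13 samples at 0. Mast cells and basophils also make Il4. Their 6 markers were at 0 in all 6 WT Tfh samples and summed to at most 0.0252 CPM in S1PR4-/- Tfh samples. Their part was not tested.

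Il2, the T cell growth factor, was at 1.28, 2.01 and 2.21 CPM in WT Tfh samples and at 0.0788, 0.333 and 0.884 CPM in WT non-Tfh samples. Samples from S1PR4-/- mice were at 0.977, 1.43 and 2.35 CPM in Tfh and at 0.248, 0.665 and 1.02 CPM in non-Tfh samples. The ranges were apart in WT and overlapped in S1PR4-/- mice. No B cell sample exceeded 0.186 CPM.

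Ifng, the signature cytokine of Th1 cells, varied widely between samples of a group. It was at 0.240, 1.11 and 2.08 CPM in WT Tfh and at 0.169, 2.57 and 10.7 CPM in S1PR4-/- Tfh samples. In non-Tfh samples it was at 0.0590, 0.414 and 0.920 CPM in WT and at 0.186, 0.407 and 0.680 CPM in S1PR4-/- mice. The 4 T cell ranges all overlapped, and the highest value came from S1PR4-/- Tfh replicate 1. CD8 T and NK cells, which the sort on TCRβ and CD4 would remove, also make Ifng, and the summed level of their markers was 45.9 to 107 CPM in Tfh samples of both genotypes and 118 to 159 CPM in non-Tfh samples. Their part in the Ifng levels was not tested.

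Il10, an inhibitory cytokine, was, besides Tnf, the only member above 0.214 CPM in any B cell sample. It was at 0.587, 1.58 and 2.80 CPM in WT Tfh and at 0.910, 1.72 and 3.31 CPM in S1PR4-/- Tfh samples. Non-Tfh samples reached 0.263 CPM in WT and 0.233 CPM in S1PR4-/- mice, below all Tfh samples. GC B samples were at 0.0272, 0.539 and 1.24 CPM in WT and at 0.231, 0.650 and 0.835 CPM in S1PR4-/- mice, while all 9 non-GC B samples were at 0. The summed level of 8 plasma cell markers moved with this split. It was 5543 to 12373 CPM in WT GC B, 2472 to 23588 CPM in S1PR4-/- GC B and 506 to 998 CPM in non-GC B samples, and its part in the Il10 level was not tested. Regulatory T cells also make Il10, and the summed level of 7 of their markers was 738 to 1280 CPM in Tfh and 438 to 1177 CPM in non-Tfh samples.

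Il17a and Il13 were the 2 scarcest members. Il17a, the Th17 cytokine, was at 0.240, 0.636 and 1.12 CPM in WT Tfh and at 0, 0.197 and 0.605 CPM in S1PR4-/- Tfh samples, with the 2 ranges overlapping. Non-Tfh samples reached 0.0843 CPM in WT and 0.469 CPM in S1PR4-/- mice, and every B cell sample was at 0. Gamma-delta T cells, which the sort on TCRβ would remove, also make Il17a, and the summed level of the gamma-delta and NKT cell markers was 12.0 to 31.0 CPM in WT Tfh and 3.17 to 17.1 CPM in S1PR4-/- Tfh samples. Their part was not tested. Il13, a Th2 cytokine, reached 0.134 CPM in WT Tfh and 0.0980 CPM in S1PR4-/- Tfh samples. With 23 counts over the 24 T cell samples, 14 of them at 0, and none in B cells, Il13 was hardly measurable at this depth.

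Tnf, an inflammatory cytokine made by many immune cells, was detected in every T and B cell sample, the lowest at 3.96 CPM. It was at 15.1, 19.9 and 23.3 CPM in WT Tfh and at 13.2, 18.4 and 25.1 CPM in S1PR4-/- Tfh samples. Non-Tfh samples were at 7.39, 9.05 and 11.0 CPM in WT and at 10.4, 14.9 and 18.0 CPM in S1PR4-/- mice. GC B samples were at 15.2, 16.98 and 20.0 CPM in WT and at 12.4, 16.3 and 26.0 CPM in S1PR4-/- mice. Non-GC B samples ran from 6.81 to 12.9 CPM in WT and from 3.96 to 13.2 CPM in S1PR4-/- mice. Myeloid cells also make Tnf. The summed level of 9 myeloid markers was 9.87 to 42.1 CPM in non-Tfh samples and 14.1 to 81.8 CPM in Tfh samples, except S1PR4-/- Tfh replicate 6 at 425 CPM, and its part was not tested. Ordered by mean level, each of the 8 groups overlapped with its neighbours. For Il21, by contrast, the order fell into 3 separate steps, with both Tfh groups above both non-Tfh groups and these above the B cell groups.

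**Figure D1:**
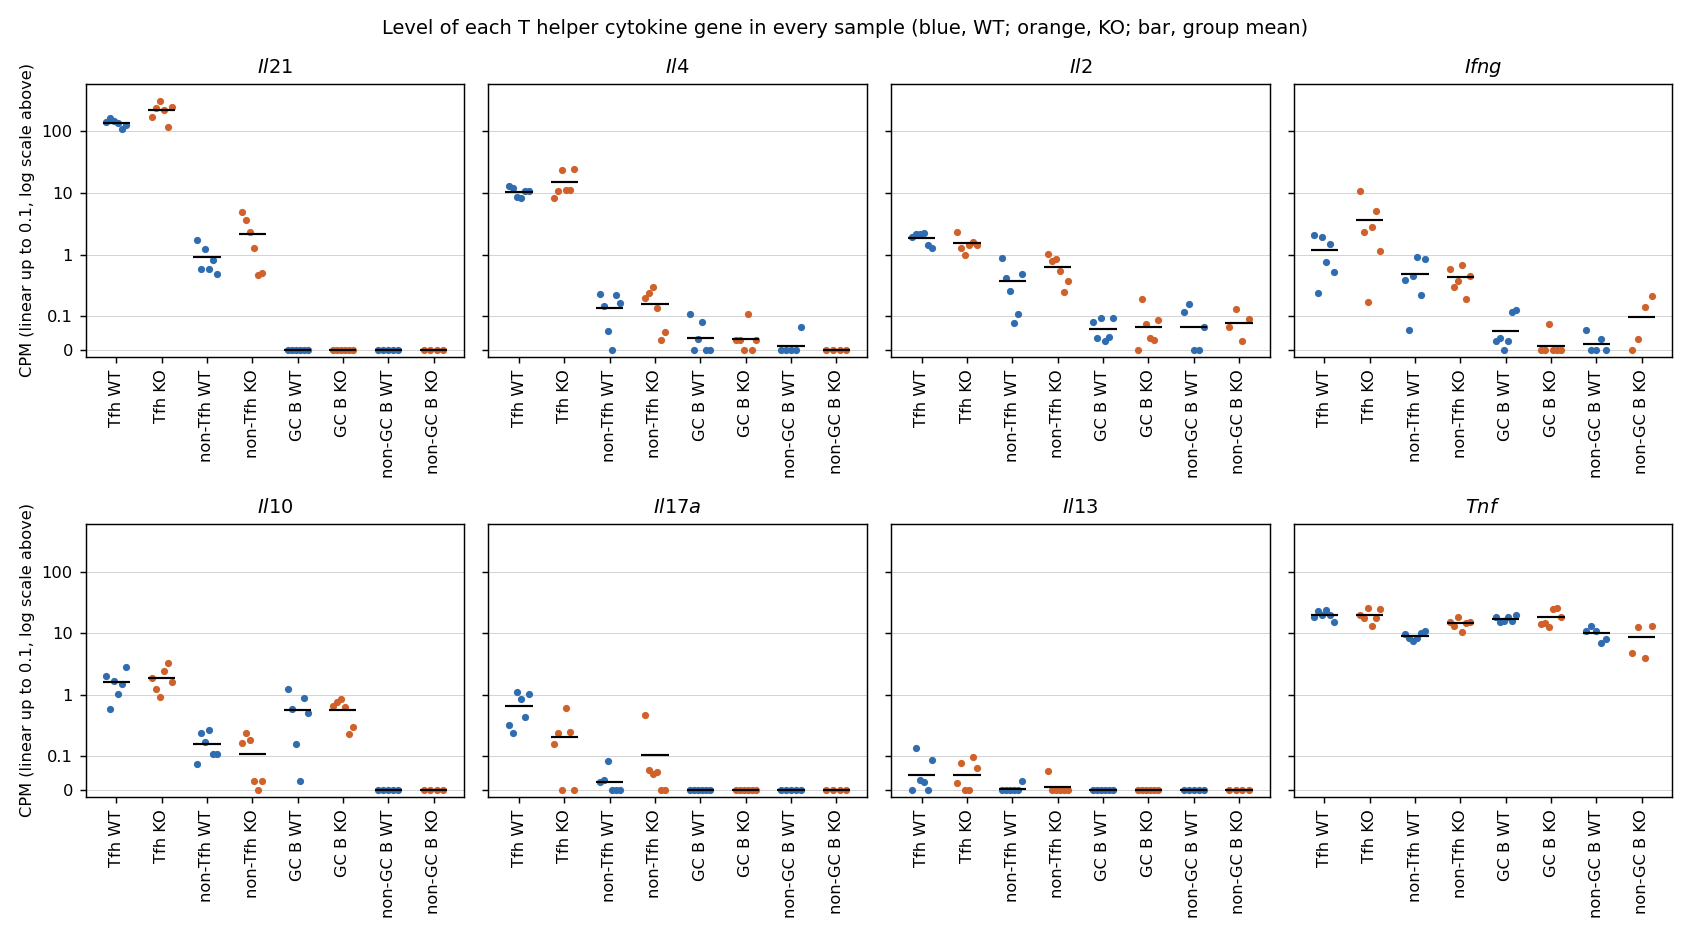
Levels of the 8 cytokine genes in each of the 45 samples, in CPM scaled by TMM, by population and genotype, with 1 point per sample, a bar for the group mean and an axis that is linear up to 0.1 and logarithmic above. Il21 lies between 110.2 and 311 CPM in all Tfh samples and at 0 in all B cell samples, while Tnf overlaps across T and B cells.

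The comparison of Tfh with non-Tfh cells asked which cytokine transcripts mark the follicular population. In WT mice, Il21, Il4, Il10, Il2 and Tnf were higher in Tfh cells. A gene was called at an adjusted p under 0.05 and a fold change over 1.5, by edgeR's quasi-likelihood test with Benjamini-Hochberg adjustment over all genes tested. Of the 8 members, 6 passed the low-count filter and 5 of these were called higher, beside 22.8% higher and 20.4% lower of all 13481 genes tested. The median log2 fold change was 2.74 over these 6 and 0.00025 over all genes, given as a description, since a scarce gene passes the filter through the group in which it is high.

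Il21 was 145-fold higher in WT Tfh cells, at 138 ± 18.9 against 0.903 ± 0.487 CPM (SD, n = 6 each), with a log2 fold change of 7.18 (SE 0.24, 95% interval 6.67 to 7.70, edgeR adjusted p = 1.66e-11). Il4 was 73.3-fold higher, at 10.6 ± 1.83 against 0.135 ± 0.0902 CPM, with a log2 fold change of 6.20 (SE 0.37, edgeR adjusted p = 2.24e-09). Il10 had a log2 fold change of 3.24 (SE 0.43, edgeR adjusted p = 9.61e-06). In WT non-Tfh samples Il4 and Il10 reached only 9 and 10 counts. Both passed the filter through the Tfh group alone, so their calls are no support. Il21, Il4, Il10 and Il2 showed no overlap between the 2 groups. The share of all genes without overlap was not counted in either genotype, so separate ranges are a description. Il2 had a log2 fold change of 2.25 (SE 0.45, edgeR adjusted p = 4.62e-04), and Tnf 1.07 (SE 0.12, edgeR adjusted p = 2.18e-06), also without overlap. In WT non-Tfh samples Il2 ran from 3.01 to 35.1 counts, with a median of 11.6. Il2 would not have passed the filter without the Tfh group, so its call is no support either. Ifng did not pass the test, with a log2 fold change of 1.22 (95% interval -0.02 to 2.46, edgeR adjusted p = 0.0741). It passed without WT Tfh replicate 2 (log2 fold change 1.44, adjusted p = 0.0312) or without WT non-Tfh replicate 4 (1.51, adjusted p = 0.0409).

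Il17a was too scarce for the filter and was compared by a two-sided exact permutation test over samples, 1 of 26 such tests. It was higher in WT Tfh cells, at 0.662 ± 0.379 against 0.0232 ± 0.0329 CPM (n = 6 each, exact permutation p = 0.00216, the smallest that 924 arrangements allow, adjusted p = 0.0188 over the 26 tests). For Il13 the exact permutation test gave p = 0.106 (adjusted p = 0.230).

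In S1PR4-/- mice, 5 of the 6 members tested were called higher in Tfh cells (Il21, Il4, Il10, Ifng and Il2), beside 22.3% higher and 21.1% lower of all genes. The median log2 fold change was 3.59 over the 6 and 0.0068 over all genes, again as a description. In S1PR4-/- non-Tfh samples Il4 and Il10 reached only 13 and 8 counts. Both passed the filter through the Tfh group alone, so their calls are no support. Il21 was 101-fold higher (log2 fold change 6.65, SE 0.48, edgeR adjusted p = 2.52e-08) and Il4 89.9-fold higher (6.49, SE 0.44, adjusted p = 1.36e-08). Both were again without overlap, as was Il10 (log2 fold change 4.09, SE 0.58, edgeR adjusted p = 2.04e-05). Il2 (log2 fold change 1.23, SE 0.33, edgeR adjusted p = 0.00445) and Ifng (3.10, SE 0.69, adjusted p = 0.00116) were called although their ranges overlapped. In S1PR4-/- non-Tfh samples Il2 ran from 8.04 to 37.2 counts. Il2 also needed Tfh samples to pass the filter, so its call is no support. Without S1PR4-/- Tfh replicate 1 the Ifng value was 2.40 (edgeR adjusted p = 0.00322), and with the replicate number as a block it was 2.502 (adjusted p = 0.00733). Tnf had an adjusted p of 0.0296 by edgeR, but its 1.34-fold difference lay below the fold threshold. Il17a was at 0.207 ± 0.223 CPM in Tfh and 0.105 ± 0.181 CPM in non-Tfh cells of S1PR4-/- mice (n = 6 each, exact permutation p = 0.418, adjusted p = 0.572).

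**Figure D2:**
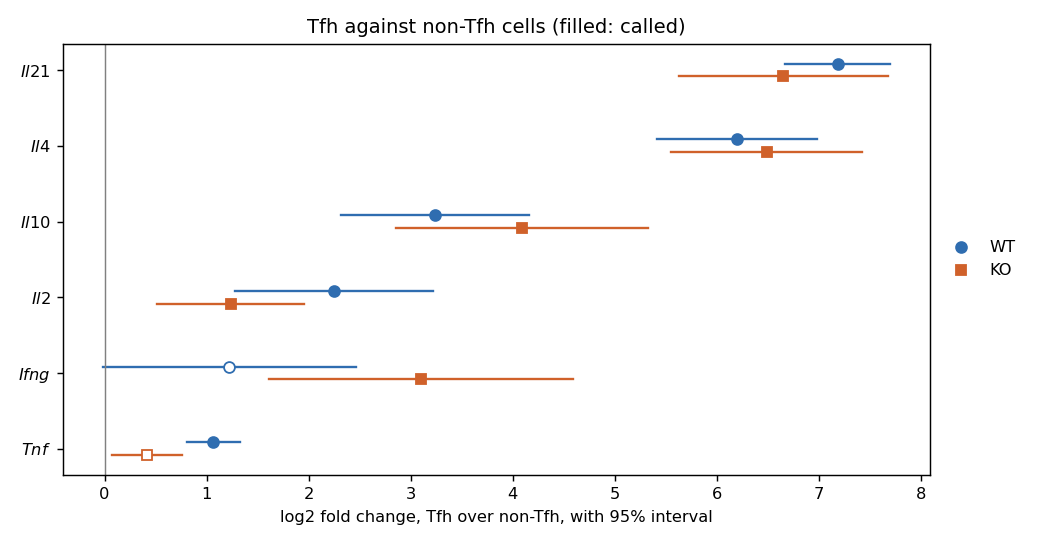
Log2 fold changes of the members in Tfh against non-Tfh cells for WT (circles) and S1PR4-/- (squares) mice, with 95% intervals from edgeR and filled symbols where called. Il21 and Il4 lie between 6.20 and 7.18 in both genotypes, and the Ifng interval in WT includes 0.

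Other genes of the helper cytokine network were counted by lists chosen with earlier results known, and each count stands beside 22.8% higher and 20.4% lower of all genes in WT and 22.3% higher and 21.1% lower in S1PR4-/- mice. Of 33 other cytokines, 20 were tested in WT, of which 13 were higher and 3 lower in Tfh cells (median log2 fold change 2.37). Among S1PR4-/- samples 11 were higher and 4 lower (median 1.65). Tnfsf14, which encodes the TNF family ligand LIGHT, was at 30.9 ± 4.04 CPM in WT Tfh and 1.49 ± 0.469 CPM in WT non-Tfh cells (log2 fold change 4.31). Lif was at 21.1 ± 5.56 against 0.635 ± 0.266 CPM (5.00). Tnfsf11, which encodes RANKL, was at 56.7 ± 5.55 against 5.41 ± 1.89 CPM (3.33), and Tnfsf8, the CD30 ligand gene, at 341 ± 61.0 against 60.2 ± 8.07 CPM (2.44). All 4 were among the genes called. Without S1PR4, Tnfsf8, Tnfsf11 and Tnfsf14 were also called higher, and Ltb, a lymphotoxin subunit gene, was called lower at 321 against 1125 CPM. Of the Th17 cytokines, chosen after their values were seen, Il22 was at 47.6 ± 25.7 CPM in WT Tfh and 0.675 CPM in WT non-Tfh cells (log2 fold change 6.08), and Il17f at 27.5 ± 11.7 and 1.52 CPM (4.11).

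Of 15 receptor genes of the members, 13 were tested in WT, of which 3 were higher and 7 lower in Tfh cells (median log2 fold change -0.70, beside 22.8% higher and 20.4% lower of all genes), and in S1PR4-/- mice 2 were higher and 8 lower (-0.83). Il4ra, the IL-4 receptor chain, was at 101 ± 8.76 CPM in WT Tfh and 591 ± 59.3 CPM in WT non-Tfh cells (log2 fold change -2.61, edgeR adjusted p = 7.27e-12). Ifngr2, an IFN-γ receptor chain, was at 17.4 ± 2.81 against 80.4 ± 6.77 CPM (-2.27), and Ifngr1 at 168 ± 16.2 against 330.1 ± 66.2 CPM (-1.03). Il17ra was at 327 ± 16.6 against 604 ± 40.2 CPM (-0.94). Il4ra in S1PR4-/- mice was at 76.9 against 651 CPM (-3.10). In both genotypes Tfh cells thus held more Il4 and less Il4ra transcript than non-Tfh cells.

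Of 34 transcription factor genes that act on cytokine genes, 18 were higher and 2 lower in WT Tfh cells (median log2 fold change 0.79, beside the same shares of all genes), and of 33 tested in S1PR4-/- mice 18 were higher and 5 lower (0.64). Nfatc1, a member of the NFAT family whose core was searched upstream, was at 1090.0 ± 127 CPM in WT Tfh and 312 ± 21.3 CPM in WT non-Tfh cells (1.75). Batf was at 234 ± 27.2 against 56.2 ± 5.53 CPM (2.00), and Bcl6, which directs Tfh identity, at 123 ± 16.9 against 35.2 ± 4.09 CPM (1.74). Ikzf3 was at 221 ± 29.2 against 53.9 ± 9.43 CPM (1.97). In S1PR4-/- mice Nfatc1 (2.03), Ikzf3 (2.40), Maf (3.63), a factor for Il21 and Il4 transcription, and Rora (1.92) led the called factors.

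**Figure D3:**
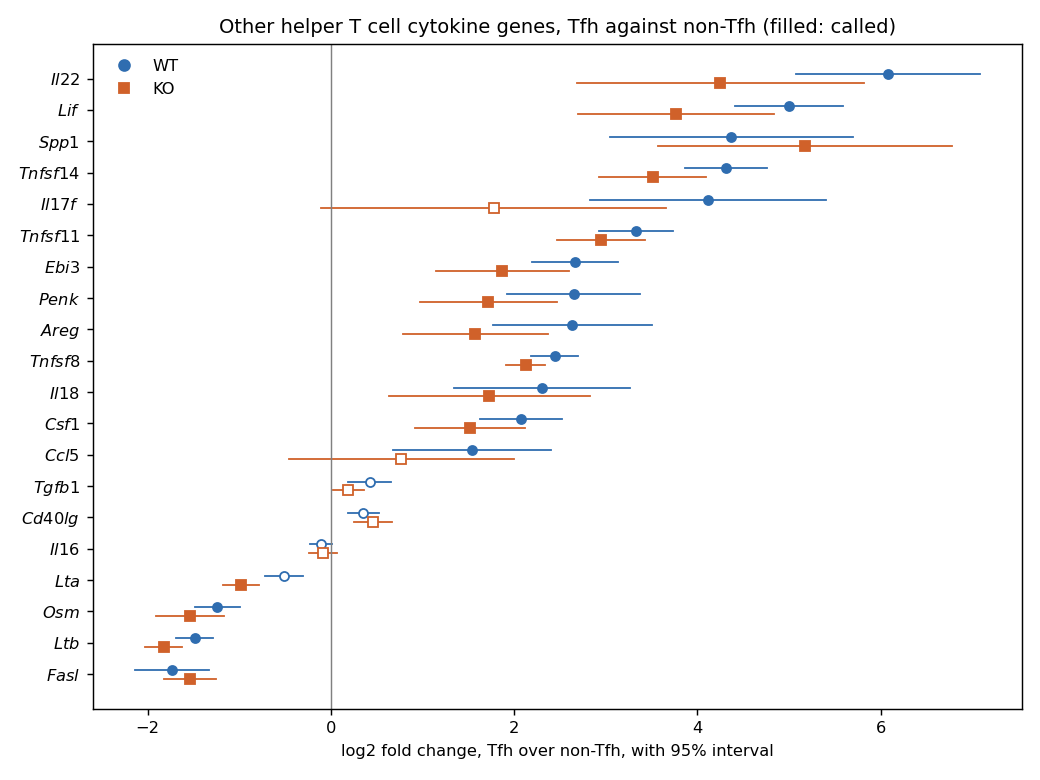
Log2 fold changes of the 20 other helper cytokine genes tested in Tfh against non-Tfh cells, with 95% intervals from edgeR (circles WT, squares S1PR4-/-, filled where called). Il22 and Lif lie farthest to the right in WT, at 6.08 and 5.00, and the interval of Il17f in S1PR4-/- mice includes 0.

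The comparison of GC B with non-GC B cells asked whether B cells of the reaction carried cytokine transcripts. In WT mice only Tnf passed the filter, and it was called, at 17.2 ± 1.93 against 9.84 ± 2.45 CPM (n = 6 and 5), with a log2 fold change of 0.80 (SE 0.16, edgeR adjusted p = 8.42e-04). This was 1 of 1 member, beside 24.8% of all genes called higher and 23.1% lower. Myeloid markers moved with it. Their summed level was 37.6 to 212 CPM in WT GC B and 12.9 to 50.4 CPM in WT non-GC B samples, with 3 of 6 tested called higher, and their part was not tested. The Il10 mean in WT GC B cells was 5.43-fold a floor of 3 counts per library, and the lowest sample, at 0.0272 CPM, lay below it. Ratios to the floor, here and below, leave out the spread of the higher group. The exact permutation test gave p = 0.0173 (n = 6 and 5), and p = 0.0750 after adjustment over 26 tests, with 0.0450 to 0.103 when samples were left out in turn. In S1PR4-/- mice Il10 and Tnf passed the filter and were called, beside 25.3% of all genes called higher and 22.9% lower. Il10 was at 0 in all 4 non-GC B samples and passed the filter only through the GC B group, so its call is no support. The Il10 mean in S1PR4-/- GC B cells was 5.70-fold the floor, and Il10 fell under the filter without S1PR4-/- GC B replicate 1 or 2. Tnf had a log2 fold change of 1.08 (SE 0.39, edgeR adjusted p = 0.0297) with overlapping ranges. It was no longer called without S1PR4-/- GC B replicate 4 or 5 or non-GC B replicate 1 or 3 (adjusted p up to 0.0785).

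Of the receptor genes, 12 were tested in WT GC B against non-GC B cells, of which 2 were higher and 6 lower (median log2 fold change -0.55, beside 24.8% higher and 23.1% lower of all genes), and of 13 tested in S1PR4-/- cells 1 was higher and 6 lower (-0.79, beside 25.3% and 22.9%). The same shares of all genes apply to the other lists here. Il10rb, a chain of the IL-10 receptor, was at 44.4 ± 13.5 CPM in WT GC B and 176 ± 15.7 CPM in WT non-GC B cells (log2 fold change -1.99), and Il4ra at 319 ± 56.2 against 698 ± 102 CPM (-1.13). Il2rg, the chain shared by the IL-2, IL-4 and IL-21 receptors, was at 430.1 ± 114 against 999 ± 150.5 CPM (-1.22). Of the other cytokines, 4 were higher and 4 lower of 14 tested in WT and 4 higher and 6 lower of 15 in S1PR4-/- cells. Lta, beside Tnf on chromosome 17, was higher in WT GC B cells, at 62.2 ± 9.06 against 34.7 ± 5.92 CPM (log2 fold change 0.84, edgeR adjusted p = 1.17e-04). Of the transcription factors, 5 were higher and 12 lower of 26 tested in WT and 5 higher and 8 lower of 25 in S1PR4-/- cells.

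T cells and B cells were collected on different days, so lineage and day cannot be told apart, and the WT Tfh samples also enter the comparisons above. Against WT GC B cells, 4 of 5 tested members were called higher in WT Tfh cells, beside 24.2% of all genes. The Il21 mean in Tfh cells was 1167-fold the floor, and with no count in GC B cells Il21 passed the filter only through the Tfh group. Il4 had a log2 fold change of 7.86 (SE 0.41, edgeR adjusted p = 1.02e-09) and Il2 4.79 (SE 0.32, adjusted p = 1.51e-08). Il4 and Il2 reached only 4 and 3.03 counts in WT GC B samples and also passed only through the Tfh group. The calls on Il21, Il4 and Il2 are therefore no support. Il10, which GC B cells also carried, had a log2 fold change of 1.51 (SE 0.58, edgeR adjusted p = 0.0344) with overlapping ranges. It was no longer called without any 1 of WT Tfh replicates 1, 3 and 6 or WT GC B replicates 2, 3 and 6 (adjusted p up to 0.0823). Its counts in WT GC B samples ran from 1 to 45. Il10 would not have passed the filter without the Tfh group, so its call is no support either. Tnf differed by 0.20 (95% interval -0.05 to 0.45, edgeR adjusted p = 0.136). Ifng and Il17a, under the filter, were higher in all Tfh samples (n = 6 each, exact permutation p = 0.00216, adjusted p = 0.0188).

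Between WT non-Tfh and WT non-GC B cells, Il21 and Tnf passed the filter and Il21 was called, beside 19.1% of all genes higher in non-Tfh cells. The Il21 mean in non-Tfh cells was 8.74-fold the floor. With no count in non-GC B cells Il21 passed the filter only through the non-Tfh group, so its call is no support. Tnf had a log2 fold change of -0.18 (95% interval -0.56 to 0.20, edgeR adjusted p = 0.395). The Il10 mean in non-Tfh cells was 1.55-fold the floor, and the lowest sample, at 0.0757 CPM, lay below it. Il10 was higher in non-Tfh cells (n = 6 and 5, exact permutation p = 0.00433, adjusted p = 0.0281), a call lost without any 1 of the non-GC B samples (adjusted p = 0.0929). Ifng missed the threshold (exact permutation p = 0.0108, adjusted p = 0.0563) and passed it without any 1 of the non-Tfh samples (adjusted p = 0.0413).

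The effect of S1PR4 loss was compared within each population. In Tfh cells edgeR called 0 of 7 tested members, beside 0.496% of all 13495 genes. DESeq2 called 1, Il21, beside 184 genes over all, where edgeR called 67. By edgeR 3 members had an unadjusted p under 0.05, beside 2586 of the 13495 genes. The median log2 fold change was 0.27 over the 7 and -0.0024 over all genes. Il21 was at 221 ± 66.3 CPM in S1PR4-/- and 138 ± 18.9 CPM in WT Tfh cells (n = 6 each). The 1.63-fold difference (log2 fold change 0.70, SE 0.18, 95% interval 0.32 to 1.08) had an edgeR adjusted p of 0.0599. By replicate number, Il21 was at 174, 241, 311, 224, 120.0 and 255 CPM in S1PR4-/- Tfh cells and at 141, 166, 148, 135, 110.2 and 128 CPM in WT Tfh cells. Of the S1PR4-/- samples, 5 exceeded every WT sample, and replicate 5 lay within the WT range. Without that sample the log2 fold change was 0.82 (edgeR adjusted p = 0.0284), and by DESeq2 it was 0.71 (adjusted p = 0.00217). With Xist, which tracks the sex of the mice, as a covariate it was 0.50 (edgeR adjusted p = 0.160).

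Il17a (log2 fold change -1.60, 95% interval -3.06 to -0.13, edgeR adjusted p = 0.220) and Ifng (1.70, 95% interval 0.19 to 3.21, adjusted p = 0.209) were the other members at an unadjusted p under 0.05 in Tfh cells. The Ifng value was 1.01 (edgeR adjusted p = 0.458) without S1PR4-/- Tfh replicate 1. Il4 had a log2 fold change of 0.52 (95% interval -0.02 to 1.06, edgeR adjusted p = 0.277). Il10 (0.27, 95% interval -0.52 to 1.07), Il2 (-0.26, -0.76 to 0.24) and Tnf (-0.0025, -0.33 to 0.32) did not pass either. Markers of other cells moved in the same comparison. B cell markers had a median log2 fold change of -2.24, with 1 of 12 called lower, and plasma cell markers of -1.35, with 3 of 7 called lower. With B cell markers as a covariate, Il21 was at 1.02 (edgeR adjusted p = 0.0826), Ifng turned to -0.085, Il10 to -0.28 and Tnf to 0.26. The part of plasma cell markers was not tested.

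In non-Tfh cells edgeR called 0 of 4 tested members, beside 0.114% of all genes. DESeq2 called 1, Tnf, beside 56 genes over all, where edgeR called 15. By edgeR 2 members had an unadjusted p under 0.05, beside 1486 of 13197 genes. Tnf was at 14.4 ± 2.53 CPM in S1PR4-/- and 9.11 ± 1.31 CPM in WT cells, 1.58-fold apart (log2 fold change 0.66, SE 0.13, 95% interval 0.38 to 0.94, edgeR adjusted p = 0.0506). Regulatory T cell markers lay higher in S1PR4-/- cells for 7 of 7 tested (4 at an unadjusted p under 0.05, none called, median log2 fold change 0.32), and their part was not tested. B cell markers lay lower for 6 of 7 (5 at an unadjusted p under 0.05, none called, median -2.36), and with them as a covariate Tnf was at 0.78 (edgeR adjusted p = 0.317). The Tnf ranges overlapped only between 10.4 and 11.0 CPM. It was called without WT replicate 6 (log2 fold change 0.72, edgeR adjusted p = 0.0365) or without S1PR4-/- replicate 4 (0.74, adjusted p = 0.0177), and DESeq2 gave 0.67 (adjusted p = 3.45e-04). Il21 was at 2.18 ± 1.79 against 0.903 ± 0.487 CPM (log2 fold change 1.26, 95% interval 0.12 to 2.41, edgeR adjusted p = 0.394), and turned to -0.42 with B cell markers as a covariate. Il2 (0.78, 95% interval -0.32 to 1.88) and Ifng (-0.16, -1.24 to 0.91) did not pass, and turned to -0.29 and 0.28 with that covariate. Lta, the gene next to Tnf, was at 30.6 ± 4.78 against 20.9 ± 2.13 CPM (log2 fold change 0.55, edgeR adjusted p = 0.0381), which lay below the fold threshold and was named after its values were seen.

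In B cells no member passed. In GC B cells edgeR called 0 of 2, beside 0.0612% of all genes, and DESeq2 called 0. By edgeR none of the 2 had an unadjusted p under 0.05, beside 540 of 13070 genes. The log2 fold change was 0.013 for Il10 (95% interval -1.28 to 1.31) and 0.09 for Tnf (-0.31 to 0.49). In non-GC B cells edgeR and DESeq2 called 0 of 1, beside 0.0537% of all genes. Tnf was at -0.18 (95% interval -0.99 to 0.62) and not at an unadjusted p under 0.05, beside 593 of 13038 genes that were.

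**Figure D4:**
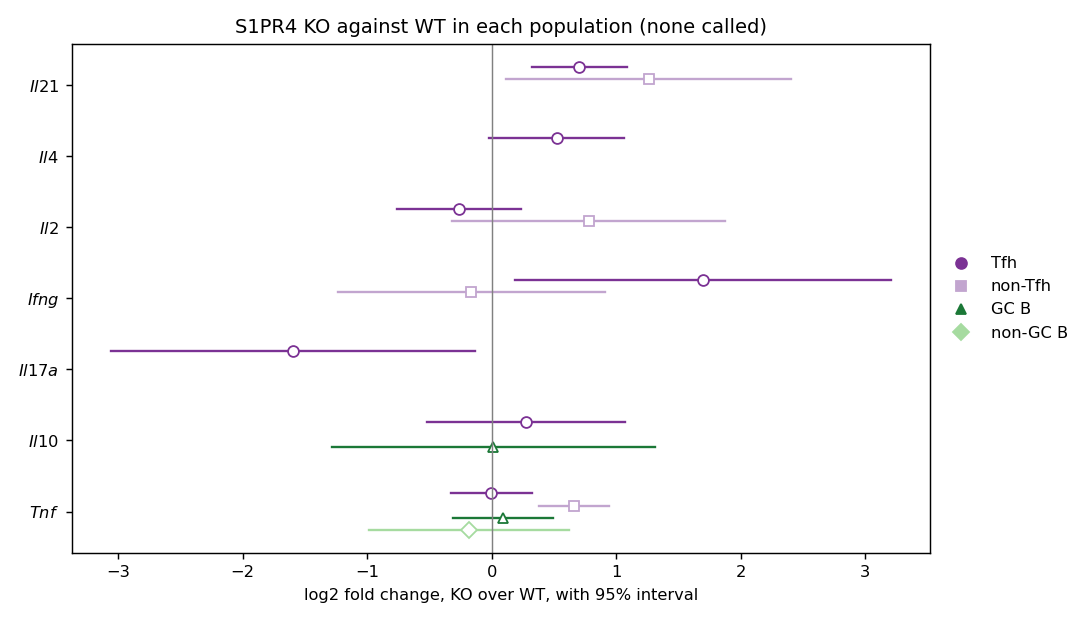
Log2 fold changes of the members in S1PR4-/- against WT cells in each population, with 95% intervals from edgeR. Intervals lie above 0 for Il21 (0.70) and Ifng (1.70) in Tfh cells and for Tnf (0.66) and Il21 (1.26) in non-Tfh cells, and below 0 for Il17a (-1.60) in Tfh cells, and none of the 5 passes the adjusted threshold.

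The difference between the genotype effects in Tfh and non-Tfh cells was tested as an interaction, called at an adjusted p under 0.05 alone. edgeR called 0 of 7 members, beside 0.0139% of all genes, and DESeq2 called 0. By edgeR 2 members had an unadjusted p under 0.05, beside 1325 of 14401 genes. The interaction for Tnf was -0.67 as a log2 difference (SE 0.21, 95% interval -1.09 to -0.24, edgeR adjusted p = 0.305) and Il17a -3.65 (95% interval -6.48 to -0.83, adjusted p = 0.405). The Il17a value rests on non-Tfh samples near the floor, with 5 counts in all in WT and 23 in S1PR4-/- samples. Of the 23, 17 came from replicate 1. For Il21 the interaction was -0.56 (95% interval -1.68 to 0.57, edgeR adjusted p = 0.817). The Il21 difference was therefore not shown to be particular to Tfh cells, and the Tnf difference not to non-Tfh cells.

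Of the other cytokine genes, 0 of 20 tested were called between genotypes in Tfh cells by edgeR, and Ltb, named after its values were seen, was at 321 CPM in S1PR4-/- and 476 CPM in WT cells (log2 fold change -0.54, edgeR adjusted p = 0.0274, below the fold threshold). None of 13 receptor genes was called. Of 34 transcription factor genes 1 was called, Fosl2, a member of the AP-1 family, at 2.26 ± 0.661 CPM in S1PR4-/- and 4.48 ± 1.01 CPM in WT Tfh cells (log2 fold change -0.96, edgeR adjusted p = 0.0499). In non-Tfh cells edgeR called 0 of 18 other cytokines, 0 of 13 receptors and 0 of 33 transcription factors.

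Genes whose pattern was most like that of a member were ranked by Pearson's r of log2 CPM, as a description, since all samples of a population share their sort and day. Over the 45 samples Il21 was most like Krt83, Trpm6, Mrps6, C030034L19Rik and Angptl2 (r = 0.98), the genes near the top for Il4 included Cd300lb and Krt87 (r = 0.98), and Tnf was most like Actb (0.84). Over the deviations of the 24 T cell samples from their group means, which leave out the differences between groups, Il21 was most like Lysmd2 (0.83) and Ttc39c (0.82), Il4 most like Cyfip1 (0.85) and Casp1 (0.83), Il2 most like Aunip (0.88) and Lrr1 (0.86), and Tnf most like Rgs16 (0.76) and Id3 (0.74). For Ifng and Il10 the nearest genes reached 0.75 (Cstf1) and 0.69 (Galnt3). Among the members, the deviations of Il21 and Il4 had an r of 0.60, Il21 and Il2 0.51, Il4 and Il2 0.48, and Ifng and Il4 -0.41.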

How the data were processed

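RNA was sequenced from 45 samples of sorted cells. The table used here holds RSEM expected counts per gene as the authors deposited them, scaled for neither depth nor length. The labels and methods name cutadapt 2.10, STAR 2.5.3, Picard, RSEM 1.3.0 and DESeq2, and mm10. The library kit was stranded, but the strand setting of the counting is not given in the sources used here. The methods name GENCODE M30, whereas the 55450 rows match release M21, from which positions were taken. Of the values, 8.83% are not whole numbers.

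Here the expected counts were rounded. Samples were grouped by their labels, and all were used. Genes passing edgeR's filterByExpr in a comparison were normalized by TMM and tested with the quasi-likelihood test of edgeR 4.0.16 (R 4.3.3), on the 2 groups of each comparison, with Benjamini-Hochberg adjustment. Intervals use the t quantile at the fit's degrees of freedom. Members under the filter with at least 10 counts entered two-sided exact permutation tests on CPM, 26 in all and adjusted together. Log2 CPM for likeness used a prior count of 2. DESeq2 1.42.0, other normalizations, no filter, a replicate block, covariates for Xist and B cell markers, and leaving out each sample were alternatives. The plain edgeR and DESeq2 fits were first tested on simulated data for some comparisons. These were Tfh against non-Tfh in WT, the genotypes in Tfh and in non-GC B cells, and the interaction. Tables were handled in Python 3.11.15 (numpy 2.4.6, pandas 2.3.3) and drawn with matplotlib 3.10.9.

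The members and lists were chosen with earlier results of these data known. The text names all members, up to 4 called genes per list and comparison in order of p reaching a mean of 1 CPM in either group, and genes from the 5 most like each member. Some genes are not reported here. Levels between genes are compared per kilobase of exon. Equal replicate numbers paired S1PR4-/- Tfh with S1PR4-/- non-Tfh samples, by correlations of the deviations from group means. In 6 of 6 pairs the sample of the same number correlated best, by 0.129 to 0.238. For WT these correlations ran from 0.0718 to 0.347 and were the best in 4 of 6, and no other groups met the rule. The main fits left this pairing out, and the replicate block was an alternative. Library size limits scarce genes, where 3 counts correspond to 0.0664 to 0.118 CPM. Intervals from counts cover counting error only.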

Additional observations from a re-analysis of the deposited data

How the results depend on the processing

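The calls on Il21, Il4, Il2 and Il10 between Tfh and non-Tfh cells held in both genotypes under every alternative run, and so did the call on Tnf in WT. Il4, Il10 and Il2 needed the Tfh group to pass the filter, so the stability of their calls is no support. When samples were left out in turn, the number of members called ran from 5 to 7 in WT, 5 to 5 in S1PR4-/- mice, 1 to 2 for GC B against non-GC B cells in each genotype, 0 to 1 between genotypes in Tfh and in non-Tfh cells, 3 to 6 between Tfh and GC B cells, 1 to 2 between non-Tfh and non-GC B cells, and 3 to 6 in the exact tests. It was 0 throughout for the genotypes in B cells and for the interaction. Without the filter, GC B against non-GC B cells in WT had 2 members called, Tfh against GC B 7, and non-Tfh against non-GC B 3. Such fits take in members near the floor, such as Il13 with 10 counts in WT Tfh and 0 in WT GC B samples. Shares of all genes called under each setting are not set beside these counts, which describe stability alone. With all 8 groups in 1 fit, GC B against non-GC B in WT had 2 and non-Tfh against non-GC B 5. With total counts alone, GC B against non-GC B in S1PR4-/- mice had 1. Between genotypes, 1 member was called in Tfh cells by DESeq2, and 1 in non-Tfh cells by DESeq2 and with DESeq2's size factors (Tnf, log2 fold change 0.67, adjusted p = 0.0496). The causes were not tested.

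With the replicate number as a block, 1 member was called between genotypes in Tfh cells (Il21, log2 fold change 0.65, edgeR adjusted p = 0.0456). The samples share only a number there, and their deviations correlated from -0.190 to 0.220. In non-Tfh cells the block gave 0 calls (Tnf adjusted p = 0.0625) and turned Ifng to 0.018. A block within genotype for the interaction, chosen after seeing the data, gave 0 member calls (Tnf adjusted p = 0.122). The block changed no other member call. The genotype effect reversed with B cell markers as a covariate in Tfh cells for Ifng (-0.085), Il10 (-0.28) and Tnf (0.26), and in non-Tfh cells for Il21 (-0.42), Il2 (-0.29) and Ifng (0.28). Tnf in Tfh cells was 0.00182 with DESeq2's size factors, 0.00218 by DESeq2 and 0.00435 with all groups in 1 fit. Il10 in GC B cells was -0.034 with total counts alone and -0.022 with Xist as a covariate.

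Leaving out samples in turn, the genotype log2 fold change ran from -0.091 to 0.085 for Tnf in Tfh, from -0.39 to 0.13 for Ifng in non-Tfh, from -0.25 to 0.42 for Il10 and -0.043 to 0.18 for Tnf in GC B, and from -0.47 to 0.058 for Tnf in non-GC B cells. Differences in CPM of scarce members that changed sign ran from -0.0235 to 0.0157 (Il2, GC B against non-GC B, WT), -0.0325 to 0.00739 (Il2, the same, S1PR4-/-), -0.0124 to 0.0160 (Il13, genotypes, Tfh), -0.00595 to 0.0480 (Il4, genotypes, non-Tfh), -0.0192 to 0.0101 (Il4) and -0.0161 to 0.0210 (Il2) between genotypes in GC B, and -0.00717 to 0.0320 (Il2) in non-GC B cells. Over all genes, 67 were called between genotypes in Tfh cells, against 184 by DESeq2, 46 with the block, 151 with Xist and 13 with B cell markers as covariate. In non-Tfh cells it was 15, against 56, 21, 9 and 9 in that order. For the interaction it was 2, against 76 by DESeq2, 10 with the block and 41 with the block within genotype.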
